A study of Rattus norvegicus with 14 samples.

Results

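The Egr and Nr4a immediate-early transcription factors were examined in the dentate gyrus of 14 rats, as 9 genes: Egr1, Egr2, Egr3, Egr4, Nr4a1, Nr4a2, Nr4a3, Srf and Tiparp. All probe sets (groups of short oligonucleotides that report one transcript) whose only gene symbol in the platform annotation is one of these names were taken, which gave 14 probe sets of 15923 on the array and 9 of 10411 genes. The first 7 names are the Egr and Nr4a genes themselves. Srf encodes a factor that drives many of them, and Tiparp encodes an ADP-ribosyltransferase, so neither belongs to the families in the name of the set. The rats were male Long-Evans, 3 to 4 months old, and all had learned a standard water maze 2 to 3 weeks earlier. The 7 learning rats then had 1 session of 8 trials at a new site with orienting cues and a visible platform that stayed in place. The 7 control rats had the same number of trials at that site with a visible platform that moved and without informative cues. Both groups swam a probe trial of 90 s, 1 h after training, and were killed straight after it, so the comparison is between swimming tasks and contains no undisturbed rats. Each rat gave 1 array of microdissected dentate gyrus.

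Immediate-early genes are transcribed within minutes of synaptic activity from factors already present in the cell. SRF, with its ternary complex partners, and CREB are the factors best known to carry calcium and ERK signals to these promoters. EGR proteins are zinc-finger factors that bind GC-rich sites, and NR4A proteins are orphan nuclear receptors whose activity depends mainly on how much of them is made. In rodents both families are known from work on hippocampal plasticity and the formation of long-term memory.

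Promoter sequence is shown for the 5 members that were tested below and have an entry in the RefSeq promoter table (build GRCr8), since SRF and CREB sites are what these genes are known to share. Entries were found for 7 of the 9 members, and Egr3 and Nr4a3 are named only. Each line gives the 250 bases before the annotated start, 5′ to 3′ on the gene's strand. Capitals mark CArG boxes, the SRF element, and the CREB half-site TGACG on either strand, which reads CGTCA on the opposite one. The windows are chr18:26736828-26737077 on the plus strand for Egr1, chr7:134259888-134260137 on the plus strand for Nr4a1, chr3:62104888-62105137 on the minus strand for Nr4a2, chr9:21923826-21924075 on the plus strand for Srf and chr2:152063519-152063768 on the plus strand for Tiparp.
Egr1: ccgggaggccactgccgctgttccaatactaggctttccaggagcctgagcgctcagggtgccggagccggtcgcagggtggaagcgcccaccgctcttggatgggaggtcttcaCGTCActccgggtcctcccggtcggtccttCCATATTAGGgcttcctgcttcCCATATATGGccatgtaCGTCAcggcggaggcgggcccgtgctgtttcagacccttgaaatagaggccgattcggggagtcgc
Nr4a1: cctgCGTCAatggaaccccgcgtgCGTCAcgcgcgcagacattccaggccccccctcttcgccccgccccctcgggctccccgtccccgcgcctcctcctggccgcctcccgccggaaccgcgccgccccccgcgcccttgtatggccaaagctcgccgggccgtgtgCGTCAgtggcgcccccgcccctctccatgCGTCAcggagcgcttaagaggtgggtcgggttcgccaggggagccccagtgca
Nr4a2: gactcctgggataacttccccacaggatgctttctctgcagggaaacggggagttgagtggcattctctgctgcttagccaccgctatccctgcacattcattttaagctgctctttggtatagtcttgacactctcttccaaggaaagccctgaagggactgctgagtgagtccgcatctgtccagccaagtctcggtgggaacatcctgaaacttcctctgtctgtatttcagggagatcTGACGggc
Srf: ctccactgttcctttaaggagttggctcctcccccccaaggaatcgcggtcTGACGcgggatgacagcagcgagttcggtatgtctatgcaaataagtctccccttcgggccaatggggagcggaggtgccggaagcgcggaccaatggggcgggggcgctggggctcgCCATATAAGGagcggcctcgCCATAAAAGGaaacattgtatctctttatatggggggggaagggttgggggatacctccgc
Tiparp: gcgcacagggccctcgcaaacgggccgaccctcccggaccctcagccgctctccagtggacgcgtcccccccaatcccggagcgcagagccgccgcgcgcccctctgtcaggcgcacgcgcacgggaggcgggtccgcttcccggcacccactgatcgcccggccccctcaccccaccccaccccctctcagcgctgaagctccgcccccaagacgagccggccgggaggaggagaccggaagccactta

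A CArG box was found in 3 of the 7 windows, those of Egr1, Egr2 and Srf, against 1.5% of 33469 rat promoter windows of the same length. Egr1 held 2, beginning 105 and 83 bases before the start, Srf held 2, at 81 and 61 bases, and Egr2 held 1, at 83 bases. The half-site TGACG, searched on both strands, was found in 6 of the 7 windows and in 18.2% of all windows. Nr4a1 held 4 half-sites, beginning 246, 226, 82 and 53 bases before the start. Egr1 and Egr4 held 2 each, and Egr2, Nr4a2 and Srf held 1 each. Tiparp held neither element. The full palindrome TGACGTCA, which contains the half-site on both strands, was in 0 of the 7 windows and in 1.59% of all. The EGR site GCGTGGGCG and the NR4A site AAAGGTCA were also in 0 of the 7, and in 0.478% and 1.24% of all windows. These matches describe letters in the windows shown and were not tied to binding.

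Values are GCRMA log2 expression, where a step of 1 is a doubling, and a difference always means learning minus control. A probe set was tested if its mean over the 14 arrays was at least 4. This was met by 1 probe set each for Egr1, Nr4a1, Nr4a2, Nr4a3, Srf and Tiparp, and by none for Egr2, Egr3 and Egr4. None of the 6 tested genes passed limma's test after Benjamini-Hochberg adjustment over all 9387 tested probe sets, where 0 probe sets were called (0% of those tested) and the lowest adjusted p of a member was 0.299. At an unadjusted limma p below 0.05 there were 3, Nr4a3, Tiparp and Srf, all higher in learning rats. In the same fit 13.1% of all tested probe sets were below that level, 6.43% higher and 6.67% lower in learning rats, so such values were common across the array. The remaining tested members were Egr1, higher on average, and Nr4a1 and Nr4a2, lower on average. The median difference of the 6 was 0.15, beside 0.0018 over 6697 tested genes. That median includes Srf at 0.18 and Tiparp at 0.23, which lie outside the Egr and Nr4a families. Within the families Egr1 was at 0.12, Nr4a1 at -0.04, Nr4a2 at -0.37 and Nr4a3 at 0.23, with no common direction. No member probe set had groups that did not overlap, as 0.405% of tested probe sets did.

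**Figure D1:**
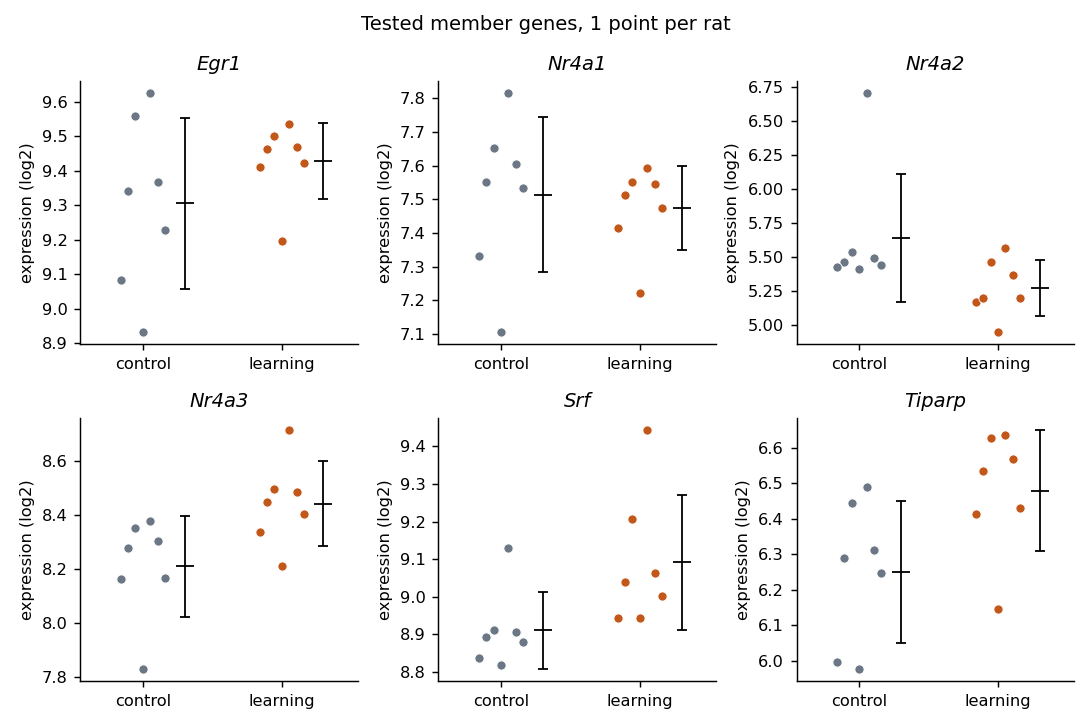
Expression (log2) of the 6 tested member genes in each of the 7 control and 7 learning rats, 1 point per rat, with the group mean and SD beside the points and a separate axis per gene. Nr4a3, Srf and Tiparp sit higher in learning rats with overlapping groups, and 1 control rat stands at 6.71 for Nr4a2.

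Egr1, the EGR factor most used as a marker of recent neuronal activity, was measured by 1 probe set. Control rats ran from 8.93 through a median of 9.34 to 9.63, and learning rats from 9.20 through 9.46 to 9.53. All learning rats lay inside the control range, and learning replicate 7 was the lowest of them. The difference was 0.12 ± 0.10 (SE), or 1.09-fold, with a 95% interval from -0.08 to 0.33 and an adjusted p of 0.594 in limma (p = 0.258 in a two-sided exact permutation test over the arrays). Without control replicate 2, the lowest rat, it was 0.06. The SD was 0.25 in control rats and 0.11 in learning rats, and this change of spread was not tested.

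Egr2, Egr3 and Egr4, the other EGR paralogs, gave only values below the filter and were not tested. Across the 8 member probe sets below it, means ran from 2.05 to 3.96, and 3 of them varied by less than 0.1 over all 14 rats. GCRMA compresses differences in this range, so a small difference there bounds little. The brighter Egr2 probe set ran from 3.35 through 3.51 to 3.54 in control rats and from 3.50 through 3.55 to 3.90 in learning rats. Its learning rats reached higher, with 4 of 7 above every control rat, and learning replicate 5 was the highest. Egr3 stayed between 2.60 and 2.66 in all rats.

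The brighter Egr4 probe set ran from 3.45 through 3.48 to 3.59 in control rats and from 3.31 through 3.41 to 3.46 in learning rats. Here 5 of 7 learning rats lay below every control rat, and the mean difference was -0.09. The second probe sets of Egr2 and Egr4 averaged 2.07 and 2.05, with differences of 0.0056 and 0.0062. The Egr2 and Egr4 values thus went in opposite directions, by 0.14 and -0.09, near background. With no filter, limma's unadjusted p fell below 0.05 for these brighter probe sets of Egr2 and Egr4, and neither passed adjustment. In that fit 1476 of 15866 probe sets were below 0.05.

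**Figure D2:**
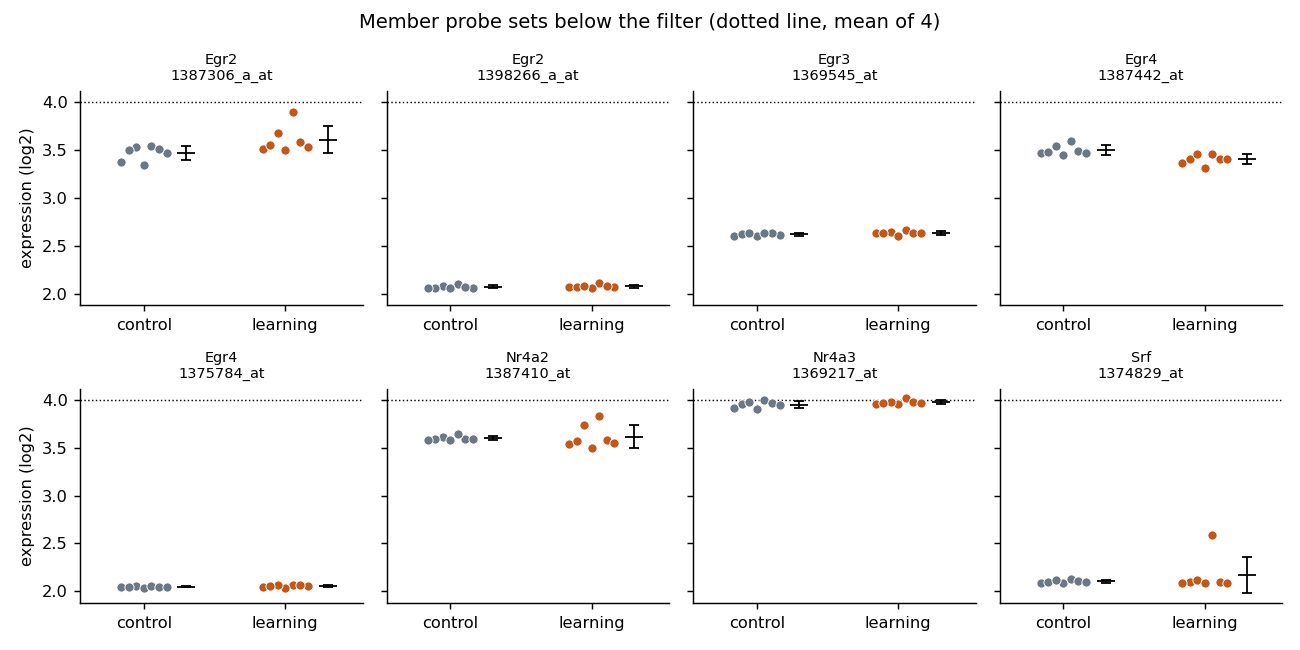
Expression (log2) of the 8 member probe sets whose mean was below 4 (dotted line), 1 point per rat on a common axis, with group mean and SD. The Egr3 values and the dimmer Egr2 and Egr4 values are nearly flat, and the brighter Egr2 and Egr4 probe sets shift by about 0.1 in opposite directions.

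Among the NR4A receptors, Nr4a1 (Nur77) is the member most often followed as an early activity marker. Its control rats ran from 7.11 through 7.55 to 7.82 and its learning rats from 7.22 through 7.51 to 7.59. The learning values lay inside the control range, and the difference was -0.04 ± 0.09 (SE), with a 95% interval from -0.24 to 0.16 and an adjusted p of 0.872 in limma. The sign turned to 0.01 without control replicate 5 and to 0.0017 without learning replicate 1.

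Nr4a2 (Nurr1), known for its role in dopamine neurons and also induced in hippocampus, had the widest spread of the tested members. Control rats ran from 5.42 through 5.47 to 6.71 and learning rats from 4.95 through 5.20 to 5.57. Control replicate 1 stood more than a full log2 unit above the other control rats, whose highest was 5.54, and 5 of 7 learning rats lay below every control rat. The difference was -0.37 ± 0.18 (SE), with a 95% interval from -0.74 to 0.0072 and an adjusted p of 0.389 in limma (exact permutation p = 0.0251). Without control replicate 1 it was -0.19. A second Nr4a2 probe set, at a mean of 3.61, differed by 0.02.

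Nr4a3 (NOR-1), the third receptor, was the member with the smallest p. Control rats ran from 7.83 through 8.28 to 8.38 and learning rats from 8.21 through 8.45 to 8.72. Of the 7 learning rats 5 lay above every control rat, with learning replicate 1 the highest and control replicate 2 the lowest. The difference was 0.23 ± 0.09 (SE), or 1.17-fold, with a 95% interval from 0.04 to 0.42 and an adjusted p of 0.299 in limma (exact permutation p = 0.0169). It ran from 0.17 to 0.27 with each array left out in turn. Its dim probe set, at a mean of 3.96, differed by 0.02.

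The 3 receptors were then set against each other within each array, which asks whether the paralogs differ in their response, not in their level. These 3 pairs were chosen with earlier results of these data known. Nr4a3 minus Nr4a2 averaged 2.57 ± 0.53 over the 7 control rats and 3.17 ± 0.25 over the 7 learning rats (mean ± SD), and 6 of 7 learning rats lay above every control rat. This shift of 0.60 ± 0.22 (SE) had an exact permutation p of 0.0035 (two-sided), or 0.0105 adjusted over the 3 pairs. Nr4a3 minus Nr4a1 averaged 0.70 ± 0.13 over the 7 control rats and 0.97 ± 0.26 over the 7 learning rats (mean ± SD), with 5 of 7 learning rats above every control rat. The shift of 0.27 ± 0.11 (SE) had an exact permutation p of 0.0134, or 0.0201 adjusted over the 3 pairs. Nr4a3 thus stood higher on average relative to both paralogs in learning rats. Each of these shifts was larger than the SD of either group, but the groups still overlapped. Pairs of other genes were not set against each other, so how common such shifts are across the array was not tested. Among single probe sets, 13.1% of those tested had an unadjusted limma p below 0.05.

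Nr4a2 minus Nr4a1 shifted by -0.33 ± 0.21 (SE), which did not pass (exact permutation p = 0.128, also after adjustment over the 3 pairs), although its adjusted p was 0.0466 without control replicate 5. Without single arrays the shift of Nr4a3 against Nr4a2 ran from 0.41 to 0.67, with adjusted exact p values from 0.0052 to 0.0385. That of Nr4a3 against Nr4a1 ran from 0.18 to 0.32, with adjusted exact p values from 0.0087 to 0.0466. The smallest shift of Nr4a3 against Nr4a2 came without control replicate 1, the rat of high Nr4a2. Same-numbered rats were also taken as pairs, an alternative chosen after seeing the data for which the labels name no shared factor. Nr4a3 minus Nr4a2 was then higher in the learning rat in 7 of 7 pairs and Nr4a3 minus Nr4a1 in 6 of 7. Each had an adjusted p of 0.0469 in an exact sign-flip permutation test. The unadjusted p of the former, 0.0156, was the smallest that 128 sign flips can give. A ratio within an array shows unequal change and does not say which of the pair moved.

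**Figure D3:**
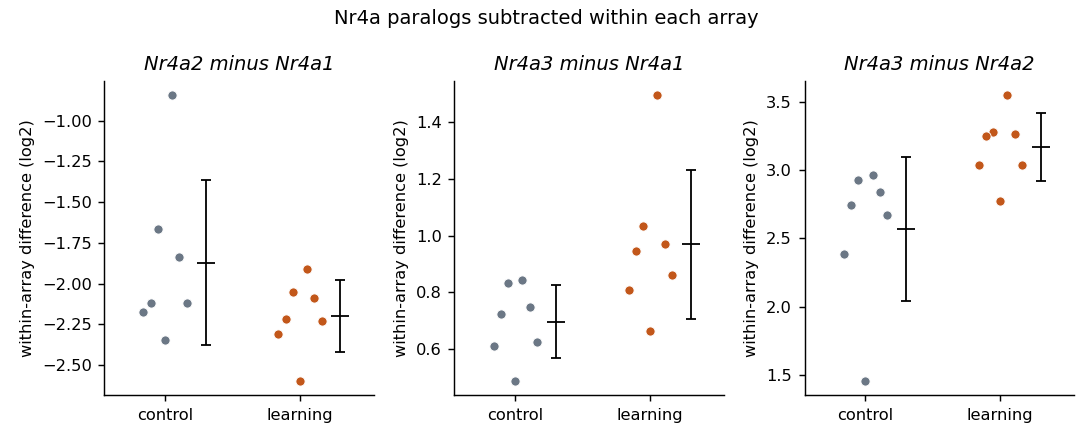
Difference between 2 Nr4a paralogs within each array (log2), 1 point per rat, with group mean and SD. Nr4a3 minus Nr4a2 and Nr4a3 minus Nr4a1 are higher in learning rats by 0.60 and 0.27, and control replicate 1 is the extreme control point in both panels that involve Nr4a2.

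Srf, the transcription factor through which many immediate-early promoters respond to activity, ran from 8.82 through 8.89 to 9.13 in control rats and from 8.94 through 9.04 to 9.44 in learning rats. All 7 learning rats lay above the control median and 6 control rats lay below every learning rat, while control replicate 5 lay inside the learning range. The difference was 0.18 ± 0.08 (SE), or 1.13-fold, with an adjusted p of 0.344 in limma (exact permutation p = 0.0274). It was 0.12 without learning replicate 5, the highest rat. A second Srf probe set stayed between 2.08 and 2.13 in control rats and stood at 2.59 in learning replicate 3.

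Tiparp, an ADP-ribosyltransferase induced by the aryl hydrocarbon receptor and by neuronal activity, ran from 5.98 through 6.29 to 6.49 in control rats and from 6.15 through 6.53 to 6.64 in learning rats. Of the learning rats 4 lay above every control rat, and learning replicate 4 lay below the control median. The difference was 0.23 ± 0.09 (SE), or 1.17-fold, with an adjusted p of 0.338 in limma (exact permutation p = 0.0431). The unadjusted limma p of Tiparp and of Srf stayed below 0.05 in 9 of 14 fits with 1 array left out, and that of Nr4a3 in 14 of 14. Without learning replicate 5 only 1 member, Nr4a3, remained below it, beside 1070 of the 9387 tested probe sets.

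Of 12 marker and RNA quality values compared between the groups, 2 passed an exact permutation test after adjustment over the 12, and each of these turned mainly on 1 gene. Granule cell markers, of which 3 of 7 were tested, averaged 8.99 to 9.23 in control and 9.13 to 9.38 in learning rats, a difference of 0.16 (exact permutation p = 0.0058, adjusted p = 0.035). Within that list Dsp, a desmosomal protein, differed by 0.44, Prox1, the factor that defines granule cells, by 0.08, and the brightest, the calcium buffer Calb1, by -0.03. Choroid plexus markers, of which 2 of 7 were tested, averaged 6.67 to 7.98 and 6.34 to 6.61, with no overlap and a difference of -0.91 (exact permutation p = 0.00058, the smallest possible, adjusted p = 0.007). Ttr, the transthyretin gene, differed by -1.78, from 6.07 to 8.68 in control rats against 5.52 to 5.92 in learning rats, while Enpp2 differed by -0.04. Folr1, Kl, Aqp1 and Kcnj13, defining markers of that epithelium, averaged under 4 in both groups.

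The other lists did not pass adjustment. Markers of CA3, 2 of 6 tested, averaged 7.91 to 8.29 and 8.07 to 8.53, a difference of 0.21 (exact permutation p = 0.0216, adjusted p = 0.0863). CA1 markers, 4 of 8 tested, averaged 5.72 to 7.33 and 6.48 to 7.19, a difference of 0.48 (exact permutation p = 0.0449, adjusted p = 0.108). Microglial markers, 6 of 8 tested, averaged 6.89 to 7.44 and 6.87 to 7.10, a difference of -0.20 (exact permutation p = 0.0297, adjusted p = 0.0892). Meningeal markers, 7 of 8 tested, ranged widely in both groups, from 4.73 to 7.28 and from 4.50 to 7.50 (exact permutation p = 0.609, adjusted p = 0.731). The 3′ minus 5′ difference of beta-actin control probe sets, a measure of RNA integrity, was 1.21 to 1.47 and 1.27 to 1.58 (exact permutation p = 0.131, adjusted p = 0.261). In bulk tissue, fewer cells of a type and less RNA per cell cannot be told apart.

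The members' differences were also fitted with the granule cell, choroid plexus, CA1 or meningeal marker mean or the beta-actin measure as a covariate, one at a time, and no fit was made with the CA3 or microglial markers. With the granule cell marker mean as a covariate the limma difference was 0.22 for Nr4a3, 0.11 for Srf, 0.15 for Tiparp, -0.04 for Egr1, -0.47 for Nr4a2 and -0.31 for Nr4a1. Nr4a1 was then the only member below an unadjusted limma p of 0.05, beside 430 of the 9387 tested probe sets, and Egr1 had turned sign. The granule cell mean itself differed between the groups and turned mainly on Dsp. This fit therefore cannot cleanly tell granule cell content from the group. With the choroid plexus marker mean Nr4a3 stood at 0.20, Srf at 0.26, Tiparp at 0.20, Egr1 at 0.05, Nr4a1 at -0.06 and Nr4a2 at -0.74. That mean did not overlap between the groups, so in this fit it and the group can hardly be told apart, and its values and calls carry no weight on cell composition. With the beta-actin measure Nr4a3 was at 0.25, with Srf and Tiparp both at 0.16. Nr4a3 alone of the members was then below an unadjusted limma p of 0.05, beside 1116 of the 9387 tested probe sets. With the CA1 marker mean Srf was at 0.12 and above that level. The shift of Nr4a3 against Nr4a2 was 0.68 with granule cell markers, 0.94 with choroid plexus markers, 0.62 with CA1 markers and 0.66 with the beta-actin measure. That of Nr4a3 against Nr4a1 was 0.53, 0.26, 0.34 and 0.28 with the same covariates. The part of cell composition in the other differences was not tested beyond these fits.

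**Figure D4:**
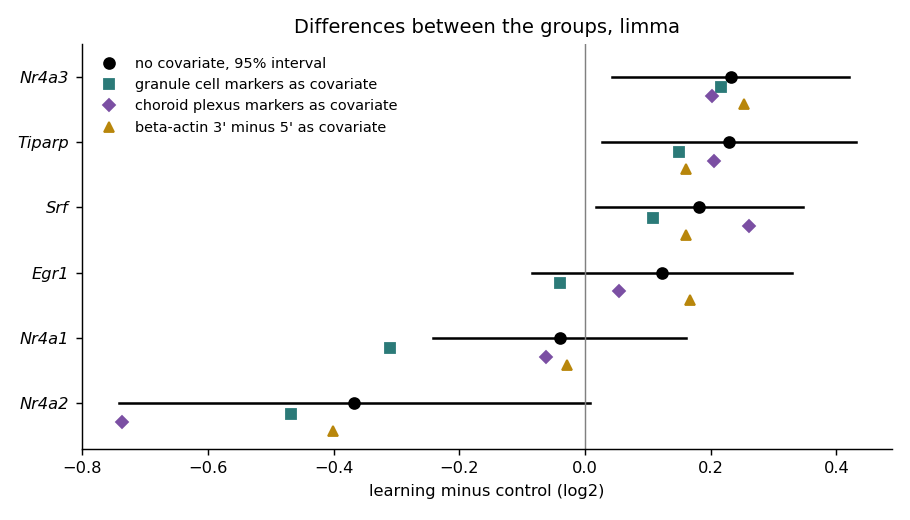
Learning minus control difference (log2) of the 6 tested members, with its 95% interval from limma (black) and the value with granule cell markers, choroid plexus markers or the beta-actin 3′ minus 5′ measure as a covariate (coloured). Nr4a3, Tiparp and Srf have intervals above 0, at 0.23, 0.23 and 0.18, and the coloured symbols move Egr1, Nr4a1 and Nr4a2 most.

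Co-variation between rats was measured on deviations from the group means, over 14 rats and 15 pairs of tested members. Pearson's r ran from -0.362 for Nr4a2 and Srf to 0.712 for Egr1 and Nr4a1, with 10 pairs above 0 and 5 below, and 0 pairs passed Benjamini-Hochberg adjustment. Egr1 and Nr4a1 had a permutation p of 0.0164 (adjusted p = 0.245) with n = 14, and Spearman's rho was 0.451 (permutation p = 0.147, adjusted p = 0.79). Without control replicates 2 and 5, the rats farthest from the median of Egr1, r was 0.307. Leaving out rats chosen as extreme narrows the range, so this cannot show whether the relation rested on them. With single arrays left out r ran from 0.51 to 0.85. Within control rats r was 0.856 (exact permutation p = 0.0137, n = 7) and within learning rats 0.122 (exact permutation p = 0.745, n = 7), and the difference between these was not tested. Without learning replicate 1, r was 0.846 with an adjusted permutation p of 0.0377 over the 15 pairs.

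Nr4a1 and Nr4a3 had r = 0.34 over all rats (permutation p = 0.283, rho = 0.288 with permutation p = 0.346, adjusted p = 0.676 and 0.79). Within control rats r was 0.831 (exact permutation p = 0.0276, n = 7) and within learning rats -0.722 (exact permutation p = 0.0911, n = 7). Without control replicate 2 and learning replicate 1 the pooled r was 0.272. Nr4a2 and Srf had rho = -0.604 (permutation p = 0.0224, adjusted p = 0.336) beside r = -0.362 (permutation p = 0.124, adjusted p = 0.618), and r = -0.381 without control replicate 1 and learning replicate 4. Control replicate 2 was lowest of its group for Egr1, Nr4a1, Nr4a3 and Tiparp.

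**Figure D5:**
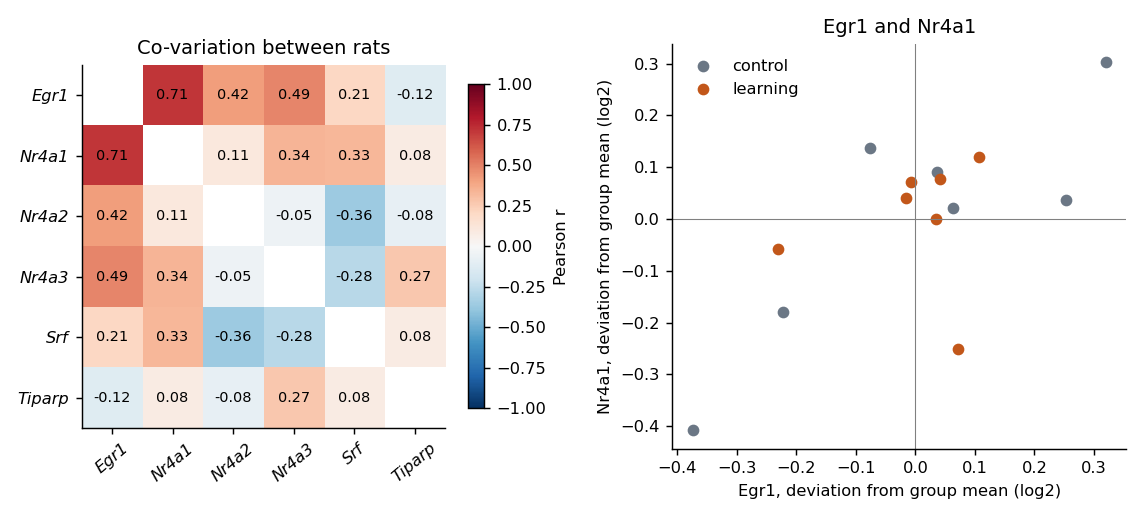
Left, Pearson r of deviations from the group mean between tested members over 14 rats. Right, these deviations (log2) for Egr1 and Nr4a1, 1 point per rat, where control replicates 2 and 5 form the ends of the relation with r = 0.712.

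The genes whose deviations followed Egr1, Nr4a1, Nr4a3 and Tiparp most closely were taken from 6691 other tested genes, as a description over 14 rats. For Egr1 these were Fgfr1 (r = 0.833), Fbxo6 (r = 0.816) and Ly6h (r = 0.807). For Nr4a1 they were Josd2 (r = 0.885), Fbxo6 (r = 0.839) and Pom121 (r = 0.825), so Fbxo6 stood in both sets. Nr4a3 was followed by Rps6kb1 (r = 0.823), Cplx2 (r = 0.802) and Usp12 (r = 0.776), and Tiparp by Trim2 (r = 0.865), Rictor (r = 0.853) and Cfap97 (r = 0.811). The closest genes of Nr4a2 and Srf, at r = 0.918 and r = 0.902, are not listed. With so many genes searched, high values arise in any such ranking.

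Other genes of the same early response were described by list, each against the 6697 tested genes, of which 50.6% were higher in learning rats. None of them passed limma's adjusted threshold. Of the AP-1 and other inducible transcription factors, 12 of 20 were tested, and in learning rats 5 were higher and 7 lower, at a median difference of -0.05. The smallest p values belonged to Crem, which responds to cAMP, at 0.22 ± 0.07 (SE), Jun, an AP-1 subunit, at -0.22 ± 0.11 (SE), and Klf2, a zinc-finger factor, at -0.33 ± 0.17 (SE). Among the rapidly induced effectors 15 of 25 were tested, 8 higher and 7 lower, with a median of 0.05. Here Homer1, a postsynaptic scaffold, was at 0.25, the neurite-promoting Nrn1 at -0.22 and the plasminogen activator Plat at -0.31.

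Upstream of SRF and CREB, 8 of 19 genes were tested, 4 higher and 4 lower, with a median of -0.01. Mef2d, an activity-regulated factor related to SRF, was at -0.24, the kinase Rps6ka2 at 0.12 and the ternary complex factor Elk1 at -0.10. Of the partners and corepressors 4 of 10 were tested. Nab1 and Nab2, corepressors bound by EGR proteins, were at 0.11 and 0.0022, and Rxrg and Rxrb, retinoid X receptors that pair with Nr4a1 and Nr4a2, at -0.03 and -0.0049. Of the cytoskeletal targets of SRF 8 of 11 were tested, 5 higher and 3 lower, with a median of 0.05. The 3 of smallest p were the actins Actg1, at -0.13 ± 0.06 (SE), and Acta2, at -0.52 ± 0.27 (SE), and the adhesion protein Zyx at -0.14 ± 0.08 (SE). All 3 were lower on average in learning rats, and their adjusted p values in limma were 0.35, 0.426 and 0.484.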

How the data were processed

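Dentate gyrus RNA of each rat was measured on its own Affymetrix RAE230A array, per the labels' protocols. The deposited values are log2 expression per probe set, made by the authors with GCRMA per the submitters' processing notes, with version and settings not given in the sources used here. The method corrects background from probe sequence, sets arrays to a common distribution and summarises probes, and it compresses differences near background. Array medians lay between 5.09 and 5.12, and any 2 arrays correlated at 0.995 to 0.998 over probe sets other than controls. The number of arrays limits the precision.

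Sample titles gave the group and the number of each biological replicate. Gene symbols came from the platform annotation, where 12783 probe sets had 1 symbol, 312 several and 2771 none listed. Control probe sets (57) and probe sets with a mean under 4 were left out, which left 9387. The group difference of each probe set came from limma 3.58.1 (eBayes after lmFit) in R 4.3.3 with no covariate, and p values were adjusted by Benjamini-Hochberg over all 9387. The fit was run on simulated data with independent noise for each probe set. Such data lack variation shared between genes, so this checked the calculation and not how the test behaves on these arrays. Single values were compared by two-sided exact permutation over 3432 assignments of arrays to groups, whose smallest p is 0.00058, and correlations by 100000 permutations within groups. A gene was represented by its brightest probe set. Named genes were all member probe sets, the 3 genes of smallest p per list, the brightest markers, and the 3 genes most like Egr1, Egr4, Nr4a1, Nr4a3 and Tiparp. Egr4 was not tested and has none. The members and lists were chosen with earlier results of these data known. Alternatives were other filters, normalizations and priors, array weights, a floor at 3, the replicate number as a block, marker and RNA quality covariates, and each array left out.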

Additional observations from a re-analysis of the deposited data

Results flagged for a closer look

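Each group of 7 rats was checked for a rat far from the others, by whether its gap to the nearest rat, as a share of the group's range, exceeded Dixon's critical value. This picked out 7 of 34 groups, where chance gives about 1 in 20 for normally spread values. The groups share rats and genes, and some hold values near background, so that rate is only a rough guide. For Nr4a2, control replicate 1 stood at 6.71, with the next control rat at 5.54, and the same rat was lowest for Nr4a3 minus Nr4a2, at 1.46 against 2.39. Without it the Nr4a2 difference was -0.19 and that of Nr4a3 minus Nr4a2 was 0.41. Control replicate 2 was low for Nr4a3, at 7.83 against 8.16, and the Nr4a3 difference was 0.17 without it. Learning replicate 7 was low for Egr1, at 9.20 against 9.41. Control replicate 5 was high for Srf, at 9.13 against 8.91, and the Srf difference was 0.22 without it. Learning replicate 3 was high on the dim probe sets of Srf, at 2.59 against 2.12, and of Egr2, at 2.11 against 2.08. The causes were not tested.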

How the results depend on the processing

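No member passed the adjusted threshold under any of the alternatives run, and the differences of Nr4a2, Nr4a3, Srf and Tiparp kept their sign in all 28 of them. The other filters and prior, the floor, the block and the mean of a gene's probe sets left these differences unchanged. A kept sign there is thus no check, and only the remaining alternatives could have turned it. Over all alternatives the difference ran from 0.17 to 0.27 for Nr4a3, from 0.11 to 0.26 for Srf, from 0.15 to 0.28 for Tiparp and from -0.74 to -0.19 for Nr4a2. The 0.26 of Srf and the -0.74 of Nr4a2 came with choroid plexus markers as a covariate, which can hardly be told apart from the group. Egr1 turned to -0.0402 with granule cell markers as a covariate, and Nr4a1, at -0.108 to 0.0102 with single arrays left out, turned sign when control replicate 5 (0.0102) or learning replicate 1 (0.0017) was absent. The number of members at an unadjusted limma p below 0.05 was 5 with no filter, beside 1476 of 15866 probe sets, because Egr2 and Egr4 were then tested. It was 1 each with the beta-actin measure, the choroid plexus markers or the granule cell markers as a covariate, and 1 to 4 with single arrays left out. Over all 9387 tested probe sets that number was 1116 with the beta-actin measure, 777 with choroid plexus markers and 430 with granule cell markers, against 1230. It was 944 to 1377 with single arrays left out. The number past the adjusted threshold was 0 to 1 with single arrays left out, and 1 without control replicate 6, learning replicate 1 or learning replicate 4. Without single arrays Nr4a2 minus Nr4a1 ran from -0.41 to -0.16, and r of Egr1 and Nr4a1 from 0.51 to 0.85. The causes were not tested. The covariate fits with granule cell and choroid plexus markers, those of the paralog pairs, and the correlations without single arrays were chosen after seeing the data. Same-numbered rats of the groups correlated between -0.28 and 0.26 in their deviations, above 0.1 in 4 of 7 pairs, and 4 of 7 control rats correlated best with their own number, a hint from the data that some share a factor. The numbers were not taken as pairs, because not every pair exceeded 0.1 and the labels name no shared factor. With the replicate number as a block, 3 members and 1330 probe sets were below an unadjusted p of 0.05, 0 probe sets passed adjustment, and the limma unadjusted p of Srf was 0.0063 against 0.033. The block changed no call of the 6 tested members or, as an alternative chosen after seeing the data, of the 3 paralog pairs, and the correlations and marker values were not run with it. Values near background limit what can be said of Egr2, Egr3 and Egr4.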
